A study of Saccharomyces cerevisiae with 36 samples.

Results

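Baker's yeast, Saccharomyces cerevisiae, short of nitrogen was grown in small vessels labelled MC and in 1 L vessels labelled DASGIP, and the RNA of the vessels was compared. MC is taken to mean the mini-chemostat that the title of the series names. The 6 libraries were chosen by their labels alone, 3 from MC vessels and 3 from DASGIP vessels, out of 36 in the series. Both groups carried HAP1-TAP, 1 strain built on CEN.PK 113-5D, in which the haem-responsive regulator Hap1p bears the purification tag CBP-ProtA at its C-terminus. Both had nitrogen as the scarce nutrient (N-lim) and 6% (w/v) glucose, and were sampled once the culture readings had been steady for 48 to 60 h. Of the other 30 libraries, some are the same 2 vessels under ethanol (Et-lim), glucose (Glu-lim) or oxygen and glucose (OxGlu-lim) limitation. The rest are the untagged parent CEN.PK 113-5D in MC vessels under all 4 limitations. The carbon source was at a lower percentage under Et-lim, Glu-lim and OxGlu-lim than the 6% under N-lim. The design text calls the libraries of a group biological triplicates, and the labels give no batch, date or lane, so the vessel and any batch that ran with it cannot be told apart.

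In a chemostat a steady feed sets the growth rate, and the scarce nutrient decides which programmes the cells run. When good nitrogen sources are scarce, GATA factors such as Gln3 switch on genes for poor sources, among them the transporters and enzymes for allantoin. Msn2 and Msn4 drive a general stress programme through stress response elements and Hsf1 drives chaperone genes through heat shock elements. After division, secreted enzymes that digest the septum cut the daughter cell free from its mother.

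The MC libraries held 15448517, 14417776 and 15726205 counted reads and the DASGIP libraries 17317332, 17354586 and 12534619. Mitochondrially encoded genes took 10.1%, 9.20% and 15.03% of the reads in MC libraries, against 11.2%, 10.7% and 10.8% in DASGIP libraries. The difference of the means was 0.573 percentage points (exact two-sided permutation test, p = 1.00, n = 3 each), and it was -1.22 points without MC replicate 3. Small RNA took 13.1 ± 0.711% of the reads in MC and 11.5 ± 0.273% in DASGIP libraries (SD, n = 3 each), with no overlap. Their exact two-sided permutation p of 0.10 is the smallest that 3 against 3 can give. The tagged gene HAP1 (YLR256W, chromosome XII, 646415 to 650923, build R64) had 159, 141 and 164 CPM in MC libraries, against 140, 146 and 157 CPM in DASGIP libraries, where CPM is a gene's count as a share of its library, with library sizes scaled by TMM factors. These values overlap, with a log2 fold change of MC over DASGIP of 0.07 ± 0.11 (SE) and an adjusted p of 0.733 by edgeR's quasi-likelihood test. The 7 genes of the MATa mating type summed to 2082, 1678 and 1887 CPM in MC libraries, against 1888, 2447 and 2871 CPM in DASGIP libraries. The 5 MATalpha genes summed to 138, 114 and 156 CPM in MC libraries, against 68, 89 and 138 CPM in DASGIP libraries, and 20 genes of meiosis and spores summed to 207 to 226 CPM in MC and 199 to 229 CPM in DASGIP libraries. None of these 32 markers was at 0 in any of the 6 libraries. Their part in the results below was not tested.

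MC replicate 3 stood apart from its mates. Over 6612 genes its root mean square difference in log2 CPM was 0.458 from replicate 1 and 0.524 from replicate 2, the 2 largest distances within any of the 12 groups of the series, while replicates 1 and 2 were 0.334 apart and the DASGIP libraries 0.265 to 0.349. It held 47.9% of the sum of squares within the MC group, against 31.5% for replicate 2 and 20.6% for replicate 1. Sample quality weights, which limma estimates from each library's residuals, gave it 0.179, the lowest of the 36 libraries. The weights of replicates 1 and 2 were 1.17 and 0.452, and those of the DASGIP libraries 0.861, 1.98 and 0.575. The second lowest weight of the series, 0.203, belonged to a DASGIP library under Et-lim. Of the 6612 genes, 226 were at least 2-fold higher in replicate 3 than in the mean of its mates and 68 at least 2-fold lower. Among genes called at least 2-fold without it, replicate 3 mostly lay on the MC side. Among 136 genes called at least 2-fold higher in a fit without replicate 3 (2.07% of those tested) and tested in both fits, replicate 3 lay above the DASGIP mean in 130 and above all 3 DASGIP libraries in 125, with a median difference of 1.05 on the log2 scale against 1.42 in its mates, whose values chose these genes and so favour a larger median in them. Among 62 genes called at least 2-fold lower (0.935%) it lay below the DASGIP mean in 47 and below all 3 libraries in 35, with a median of -0.55 against -1.25. The same DASGIP libraries took part in these calls, which favours places of replicate 3 on the MC side. Its places over all genes were not counted.

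**Figure D1:**
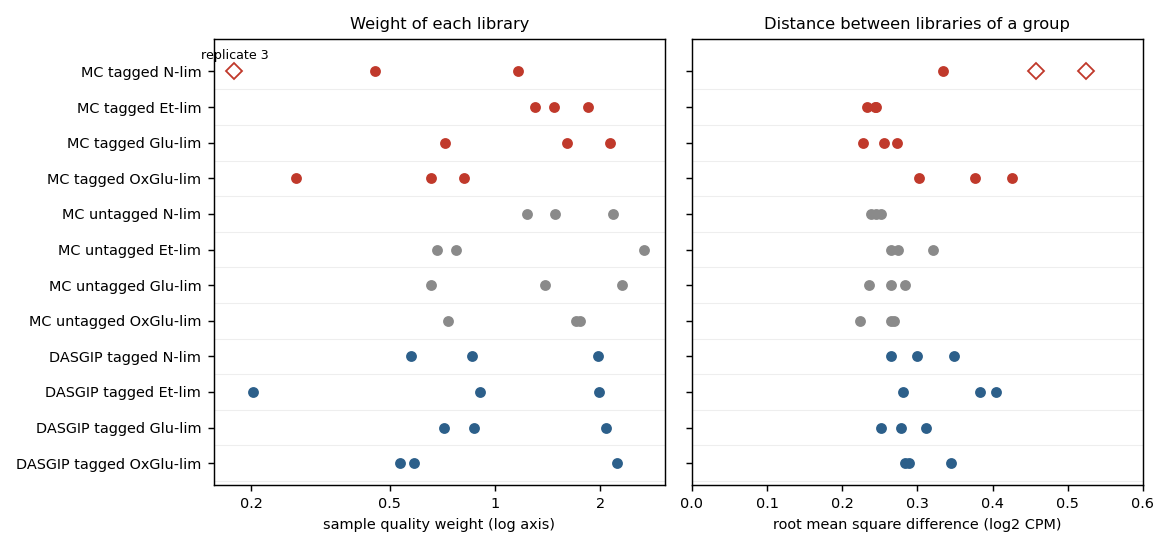
Sample quality weight of each of the 36 libraries (left, log axis) and root mean square difference in log2 CPM between every pair of libraries of a group (right), by group; open diamonds mark MC tagged N-lim replicate 3 and the pairs that hold it. Replicate 3 has the lowest weight, 0.179, and its 2 pairs, at 0.458 and 0.524, are the farthest apart.

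The genes in which replicate 3 lay furthest from its mates included sugar transporters and stress genes. Among genes of at least 10 CPM, the 6 that exceeded the mean of replicates 1 and 2 most were ENA1, REG2, YGR035C, ARO10, HXT2 and MAL12. HXT2, a high-affinity glucose transporter, had 150, 122 and 1054 CPM in MC libraries, against 23.7, 44.7 and 92.7 CPM in DASGIP libraries. ARO10, a decarboxylase that turns keto acids of aromatic amino acids towards fusel alcohols, had 16.4, 15.9 and 140 CPM in MC libraries, against 15.1, 14.02 and 10.1 CPM in DASGIP libraries, so its 2 lower MC values lay just above the highest DASGIP value. The call for ARO10 (2.13 ± 0.44, SE, adjusted p = 0.000862) ended without replicate 3 (0.30, adjusted p = 0.156). MAL12, a maltase whose reads MAL32 can share, had 19.04, 13.01 and 92.3 CPM in MC libraries, against 11.5, 8.97 and 29.4 CPM in DASGIP libraries, which overlap. Its call (1.35 ± 0.42, adjusted p = 0.0246) ended without DASGIP replicate 1 or 2 (adjusted p = 0.12 and 0.14), and its difference was -0.02 (adjusted p = 0.978) without MC replicate 3 and 2.02 without DASGIP replicate 3. REG2, a regulator of the glucose repression phosphatase, and the uncharacterised YGR035C were not called in all 6 libraries (adjusted p = 0.292 and 0.786), but without replicate 3 both were called lower in MC, at -1.18 (adjusted p = 0.0287) for REG2 and -1.66 (adjusted p = 0.00409) for YGR035C. Without MC replicate 2, by contrast, REG2 was called higher in MC (1.30, adjusted p = 0.0484). The 6 genes furthest below their mates in replicate 3 were HXT1, CTT1, HSP26, TKL2, HSP30 and SIP18. HXT1, the low-affinity glucose transporter, had 109, 126 and 20.4 CPM in MC libraries, against 182, 70.3 and 54.5 CPM in DASGIP libraries, which overlap (adjusted p = 0.651). HSP30, a stress protein of the plasma membrane, had 36.1, 51.9 and 9.68 CPM in MC libraries, against 13.2, 11.8 and 11.7 CPM in DASGIP libraries, and replicate 3 alone lay below all 3 DASGIP libraries. Its call (1.41 ± 0.32, adjusted p = 0.002) held in every fit that left out a library, with a lowest value of 0.90 without MC replicate 2, but ended when only the 6 libraries were fitted (adjusted p = 0.178, or 0.208 with the replicate number as a block).

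**Figure D2:**
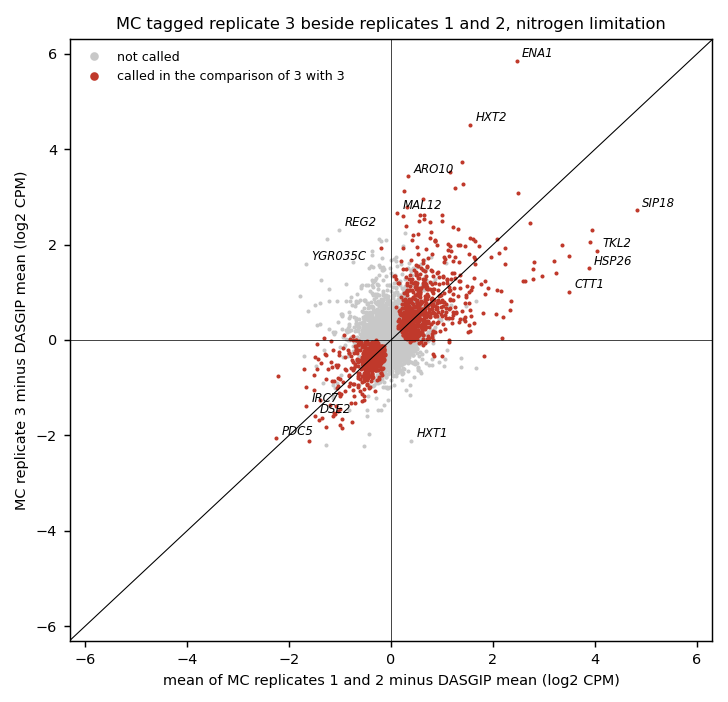
Difference from the DASGIP tagged N-lim mean in log2 CPM, for the mean of MC tagged replicates 1 and 2 (x axis) and for MC tagged replicate 3 (y axis), 1 point for each of 6612 genes; red points were called in the comparison of 3 with 3 libraries and the diagonal marks equal differences. HSP26, TKL2, SIP18 and CTT1 lie under the diagonal and HXT2, ENA1 and ARO10 over it, while PDC5, IRC7 and DSE2 lie near it.

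How MC and DASGIP libraries differed under nitrogen limitation was asked with edgeR's quasi-likelihood test on the raw counts. The test used 1 model of all 36 libraries, with Benjamini-Hochberg adjustment over 6612 genes. Genes with an adjusted p under 0.05 are called. Stress, storage and alternative carbon genes were higher in MC libraries, and genes of the separation of daughter cells, allantoin use and some of fermentation were lower. By this rule, 1207 genes were called (18.3%), 699 higher in MC (10.6%) and 508 lower (7.68%). Large differences were mostly upward: 161 genes were at least 2-fold higher (2.43%) and 40 at least 2-fold lower (0.605%), 201 in all (3.04%). The median log2 fold change over all genes was -0.01. The 3 MC values lay above all 3 DASGIP values in 908 genes (13.7%) and below them in 918 (13.9%), and 1029 of the called genes were among these. Without MC replicate 3, 1318 of 6633 genes were called (19.9%), 636 higher (9.59%) and 682 lower (10.3%). With only the 6 libraries in the fit, 287 genes were called, 195 higher and 92 lower, and 37 of the 100 genes named here and called in the full fit were not: ENA1, HXT2, CTT1, HSU1, HSP30, ARO10, MAL12, GDH2, MEP1, DAL2, DAL7, MUP3, MMP1, SAM3, DUG2, OPT1, ARO9, SSA4, STI1, PIG2, GPP1, GCY1, GTT1, MTH1, HXT6, PDC1, HXK1, FBA1, MDH1, KGD2, ATP6, BAR1, STE6, AFB1, MF(ALPHA)2, REC8 and SPS22. Of the 1207 genes, 896 were called both in the full fit and without MC replicate 3, all of them with the same sign, 311 were lost and 422 gained, 296 of the gained being lower in MC. Leaving out any other library left 826 to 1038 genes called. In bulk RNA, fewer cells of a kind and less RNA per cell cannot be told apart.

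The 12 called genes furthest above DASGIP, with no overlap between the groups and at least 10 CPM in one of them, were ENA1, SIP18, TKL2, YBR116C, HXT5, HSP26, PMA2, HXT2, FMP16, CTT1, SPG4 and GND2. All 12 were also called without MC replicate 3, and in 10 of them replicate 3 lay nearer to DASGIP than both its mates. HSP26 (YBR072W, chromosome II, 382030 to 382674), a small heat shock protein that holds unfolded proteins, had 1839, 2011 and 372 CPM in MC libraries, against 180, 91.1 and 137 CPM in DASGIP libraries. Replicates 1 and 2 were far above DASGIP and replicate 3 was closer, yet above its highest library. Its log2 fold change was 3.37 ± 0.41 (SE, adjusted p = 7.32e-07), or 3.82 without replicate 3. The MC untagged libraries had 144, 163 and 144 CPM of HSP26, inside the DASGIP range. SIP18 (YMR175W, chromosome XIII, 611016 to 611255), a protein of desiccation tolerance, had 32.95, 50.3 and 9.42 CPM in MC libraries, against 1.004, 1.74 and 1.35 CPM in DASGIP libraries (log2 fold change 4.49 ± 0.50, adjusted p = 2.52e-07). All 3 MC values of SIP18 lay above DASGIP, with replicate 3 the lowest.

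Minor enzymes of the pentose phosphate pathway stood among these genes. TKL2 (YBR117C, chromosome II, 474392 to 476437), a transketolase, had 145, 187 and 36.7 CPM in MC libraries, against 9.52, 10.4 and 9.94 CPM in DASGIP libraries. GND2 (YGR256W, chromosome VII, 1004624 to 1006102), a 6-phosphogluconate dehydrogenase, had 137, 141 and 47.8 CPM in MC libraries, against 19.7, 12.1 and 14.3 CPM in DASGIP libraries. In both genes replicates 1 and 2 were high and replicate 3 lay between them and DASGIP. Their log2 fold changes were 3.62 ± 0.43 (adjusted p = 5.55e-07) for TKL2 and 2.82 ± 0.34 (adjusted p = 7.32e-07) for GND2. YBR116C, a dubious reading frame that overlaps TKL2, had a log2 fold change of 3.56, and reads of the 2 may be shared. HXT5 (YHR096C, chromosome VIII, 294669 to 296447), a hexose transporter of slow-growing cells, had 303, 337 and 104 CPM in MC libraries, against 22.5, 16.8 and 23.9 CPM in DASGIP libraries (log2 fold change 3.56 ± 0.28, adjusted p = 2.95e-10). The MC untagged libraries had 65.4, 65.05 and 57.8 CPM of HXT5, between the tagged groups. PMA2, the minor proton pump of the plasma membrane, had 228, 323 and 82.5 CPM in MC libraries, against 26.4, 20.1 and 26.5 CPM in DASGIP libraries (3.12 ± 0.31, adjusted p = 2.39e-08). The mitochondrial protein gene FMP16 had 138, 160 and 57.5 CPM in MC libraries, against 16.2, 12.2 and 15.2 CPM in DASGIP libraries (3.03 ± 0.32, adjusted p = 1.21e-07). The same order of libraries recurred in both, with replicate 2 highest, replicate 3 lowest in MC and DASGIP below. CTT1, the cytosolic catalase, had 208, 260 and 41.6 CPM in MC libraries, against 29.99, 18.3 and 15.9 CPM in DASGIP libraries (2.98 ± 0.39, adjusted p = 2.6e-06). SPG4, named for survival in stationary phase, had 21.4, 29.3 and 7.003 CPM in MC libraries, against 2.31, 2.87 and 2.51 CPM in DASGIP libraries (2.90 ± 0.34, adjusted p = 5.65e-07).

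In ENA1 and HXT2 replicate 3 was the highest MC library instead. ENA1 (YDR040C, chromosome IV, 535192 to 538467), a sodium pump whose near-identical neighbours can share its reads, had 5.19, 3.79 and 47.7 CPM in MC libraries, against 0.786, 0.566 and 0.797 CPM in DASGIP libraries (log2 fold change 4.73 ± 0.67, adjusted p = 8.11e-06). Without replicate 3 it was 2.65 (adjusted p = 4.41e-07), and HXT2 was 1.35 (adjusted p = 0.00201), where the value with all libraries was 3.05 ± 0.50 (adjusted p = 6.56e-05) and that without DASGIP replicate 3 was 3.69. Both calls ended when only the 6 libraries were fitted, with adjusted p = 0.0674 for ENA1 and 0.117 for HXT2. The MC untagged libraries had 508, 250 and 449 CPM of HXT2, above all 3 DASGIP libraries.

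**Figure D3:**
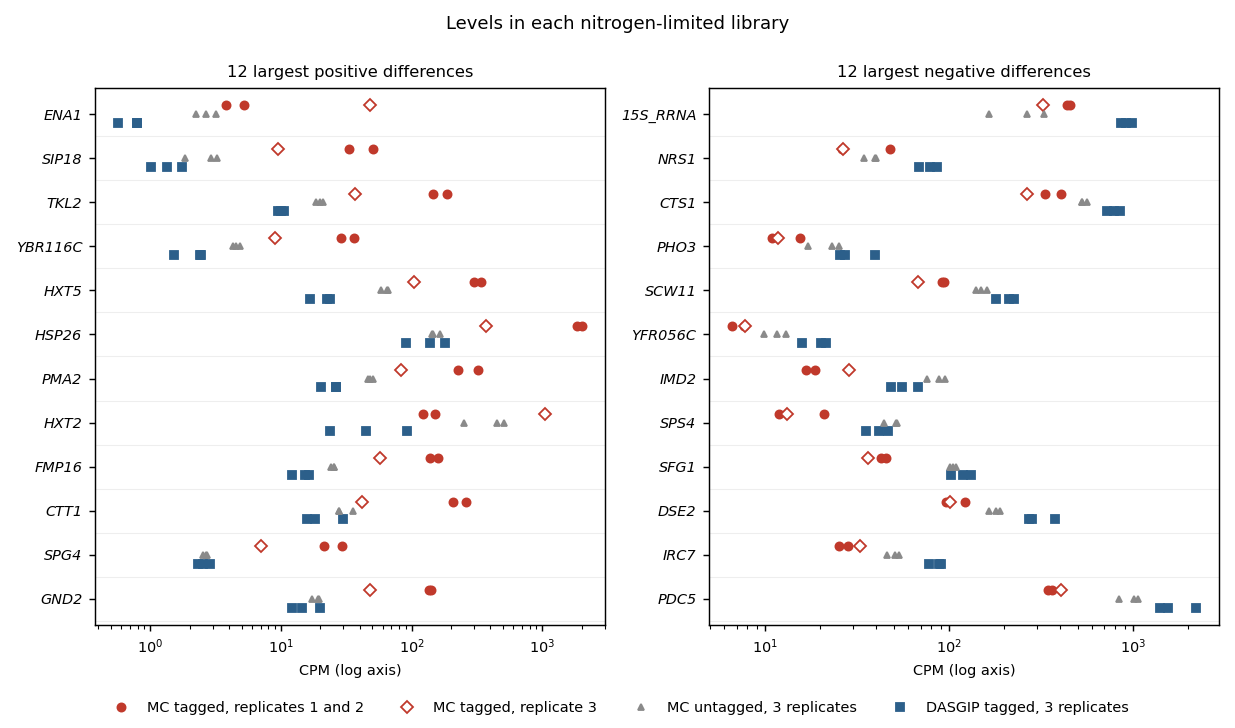
CPM (log axis) in each N-lim library of the 12 genes with the largest positive and the 12 with the largest negative called difference, rows from the most positive to the most negative; circles are MC tagged replicates 1 and 2, open diamonds MC tagged replicate 3, triangles MC untagged and squares DASGIP tagged libraries. The 24 genes were chosen so that MC tagged and DASGIP tagged values do not overlap. Replicate 3 is the MC value nearest to DASGIP in 10 of the 12 genes on the left.

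The general stress list held more higher genes than any other. That list holds mostly known targets of Msn2 and Msn4, and also MSN2 and MSN4 themselves. Of its 27 genes 20 rose and none fell, beside 10.6% and 7.68% of all genes. Its median log2 fold change was 1.20, beside -0.01 over all genes. With any one of the 6 libraries left out, 17 to 21 rose. Of 28 genes in the heat shock chaperone list, which also holds HSF1 and UBI4, 19 rose and none fell (median 0.53; 15 to 21 with a library left out). Of 17 genes of desiccation and stationary phase 11 rose and none fell (median 1.35; 10 to 11). Per library, the median difference of the heat shock genes from the DASGIP mean was 0.73, 0.80 and 0.18 in MC libraries and 0.05, -0.03 and -0.04 in DASGIP libraries, so MC replicate 3 showed the smallest difference of the MC group. For the general stress genes the MC values were 1.07, 0.85 and 0.92 and the DASGIP values 0.04, -0.08 and 0.01, so the median of replicate 3 lay between those of its mates. Single genes departed: replicate 3 was at least 2-fold below the mean of its mates in 7 of the 27 genes and at least 2-fold above in 2. In the MC untagged libraries these medians were -0.12, -0.03 and -0.06 for heat shock and 0.02, 0.13 and -0.06 for general stress genes. That strain differs from the tagged one, and the comparison with DASGIP was not tested.

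Among the general stress genes SPI1 (YER150W, chromosome V, 468370 to 468816), a cell wall protein, had 78.2, 66.3 and 47.8 CPM in MC libraries, against 22.6, 20.9 and 20.3 CPM in DASGIP libraries (log2 fold change 1.59 ± 0.18, adjusted p = 2.52e-07). OM14 (YBR230C, chromosome II, 679549 to 680050), a protein of the outer mitochondrial membrane, had 74.2, 65.5 and 72.1 CPM in MC libraries, against 27.7, 28 and 32.5 CPM in DASGIP libraries (1.27 ± 0.15, adjusted p = 5.78e-07). In both, the lowest MC library was well above the highest DASGIP library, and replicate 3 of OM14 lay between its mates. The transaldolase NQM1 rose by 2.53 ± 0.33 (adjusted p = 2.18e-06) and the stress protein gene DDR2 by 2.37 ± 0.32 (adjusted p = 4.93e-06). Among the chaperones SSA4 (YER103W, chromosome V, 364589 to 366517), a stress-induced Hsp70, had 262, 310 and 86.3 CPM in MC libraries, against 67.9, 57.99 and 60.8 CPM in DASGIP libraries (1.82 ± 0.27, adjusted p = 1.87e-05). Replicate 3 was the lowest MC library and still above all DASGIP libraries. STI1, which links Hsp70 and Hsp90, rose by 0.97 ± 0.15 (adjusted p = 2.55e-05), and SSA1, whose reads SSA2 can share, by 1.10 ± 0.17 (adjusted p = 2.55e-05). Of the desiccation list FMP45 rose by 2.63 ± 0.29 (adjusted p = 2.37e-07), the reticulon-like RTN2 by 2.04 ± 0.23 (adjusted p = 2.84e-07), HBT1 by 2.43 ± 0.29 (adjusted p = 5.88e-07) and the hydrophilin GRE1 by 2.69 ± 0.42 (adjusted p = 3.23e-05).

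The promoters of the 2 members with the smallest adjusted p in each of these 2 lists are shown because the lists are named for factors that bind known short elements. Each window is 300 bases long, 400 to 101 bases before the start codon, 5′ to 3′ on the gene's strand, read from RefSeq's R64 genome of the reference strain, which is not CEN.PK. The windows are chrV:467970-468269 (forward strand) for SPI1, chrII:680151-680450 (reverse strand) for OM14, chrII:381630-381929 (forward strand) for HSP26 and chrV:364189-364488 (forward strand) for SSA4. Capitals mark the stress response element AGGGG on either strand, so that CCCCT is its other strand, and in HSP26 and SSA4 also the heat shock element searched as TTCNNGAA or GAANNTTC.
SPI1: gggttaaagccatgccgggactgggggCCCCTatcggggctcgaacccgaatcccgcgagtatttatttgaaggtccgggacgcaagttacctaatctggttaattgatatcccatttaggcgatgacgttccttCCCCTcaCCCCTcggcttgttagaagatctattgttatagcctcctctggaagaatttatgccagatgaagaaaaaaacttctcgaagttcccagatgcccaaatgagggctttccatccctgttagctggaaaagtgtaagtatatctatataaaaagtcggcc
OM14: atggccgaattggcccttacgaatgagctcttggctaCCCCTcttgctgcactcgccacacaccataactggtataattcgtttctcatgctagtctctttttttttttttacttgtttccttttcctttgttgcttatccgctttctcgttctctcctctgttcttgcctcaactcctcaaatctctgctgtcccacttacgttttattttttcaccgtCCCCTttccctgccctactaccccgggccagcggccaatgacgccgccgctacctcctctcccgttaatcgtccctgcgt
HSP26: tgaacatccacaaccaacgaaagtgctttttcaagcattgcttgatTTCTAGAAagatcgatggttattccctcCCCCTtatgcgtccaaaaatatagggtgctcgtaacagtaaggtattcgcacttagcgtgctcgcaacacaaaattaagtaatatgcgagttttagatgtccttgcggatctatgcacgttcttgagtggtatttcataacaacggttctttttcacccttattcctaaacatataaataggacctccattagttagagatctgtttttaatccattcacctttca
SSA4: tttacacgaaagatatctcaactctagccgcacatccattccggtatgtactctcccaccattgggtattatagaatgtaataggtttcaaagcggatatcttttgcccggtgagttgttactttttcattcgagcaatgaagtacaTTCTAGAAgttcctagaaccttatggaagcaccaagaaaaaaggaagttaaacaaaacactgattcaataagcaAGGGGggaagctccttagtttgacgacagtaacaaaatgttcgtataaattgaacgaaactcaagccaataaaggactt
The window of OM14 overlaps the annotated gene YBR230W-A on the other strand. A stress response element was found in the windows of 23 of the 27 general stress genes and 11 of the 28 heat shock genes, and in 23.7% of 5819 nuclear reading frames tested that have a window. The heat shock element was found in 24 of the 28 heat shock genes and in 23.6% of the 5819. A match is a description of these letters, and the lists hold textbook targets of the factors, so the shares say nothing of which factor acted here.

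Storage, osmotic and antioxidant genes moved in the same direction between the tagged groups, with counts that depended more on single libraries. The shares over all genes were 10.6% higher and 7.68% lower. Of 20 genes of trehalose and glycogen 7 rose and none fell (median 0.47). The count was 3 without DASGIP replicate 1 or 2 and 11 without MC replicate 2. Without MC replicate 3 it was 4, with 2 lower, and the medians per MC library were 0.34, 0.11 and 0.79, replicate 3 being the highest. In the MC untagged libraries these medians were -0.34, -0.23 and -0.31, below all 3 DASGIP libraries. For osmotic genes the MC untagged medians were 0.17, 0.25 and 0.12, and for antioxidant genes -0.05, -0.01 and -0.03. GLG2 (YJL137C, chromosome X, 154985 to 156127), a glycogenin that starts glycogen chains, had 44.7, 38.9 and 41.9 CPM in MC libraries, against 19.9, 23.8 and 26.8 CPM in DASGIP libraries (log2 fold change 0.84 ± 0.10, adjusted p = 8.52e-07), with all MC libraries above all DASGIP libraries. PGM2, the main phosphoglucomutase, rose by 1.42 ± 0.25 (adjusted p = 0.000128) and the debranching enzyme GDB1 by 0.87 ± 0.23 (adjusted p = 0.00699). Of 18 osmotic and glycerol genes 11 rose and none fell (median 0.45), against 7 and 1 without MC replicate 3. GPP1, which makes glycerol from its phosphate, had 341, 721 and 297 CPM in MC libraries, against 170, 194 and 156 CPM in DASGIP libraries (1.38 ± 0.21, adjusted p = 2.55e-05). MC replicate 2 was the highest, and without it the value was 0.88 (adjusted p = 0.000376). GUT2, the mitochondrial glycerol phosphate dehydrogenase, rose by 0.74 ± 0.16 (adjusted p = 0.00115), and GCY1, a glycerol dehydrogenase, by 1.20 ± 0.23 (adjusted p = 0.000458), although replicate 3 of GCY1 lay within the DASGIP range. Of 28 antioxidant genes 10 rose and 1, the glutathione synthetase GSH2, fell (median 0.24). The sulphiredoxin SRX1 (1.52 ± 0.26, adjusted p = 0.000108), the glutathione transferase GTT1 (1.09 ± 0.19, adjusted p = 0.00014), the glutathione peroxidase GPX1 (1.30 ± 0.23, adjusted p = 0.000203) and the mitochondrial peroxiredoxin PRX1 (0.76 ± 0.14, adjusted p = 0.000302) rose.

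**Figure D4:**
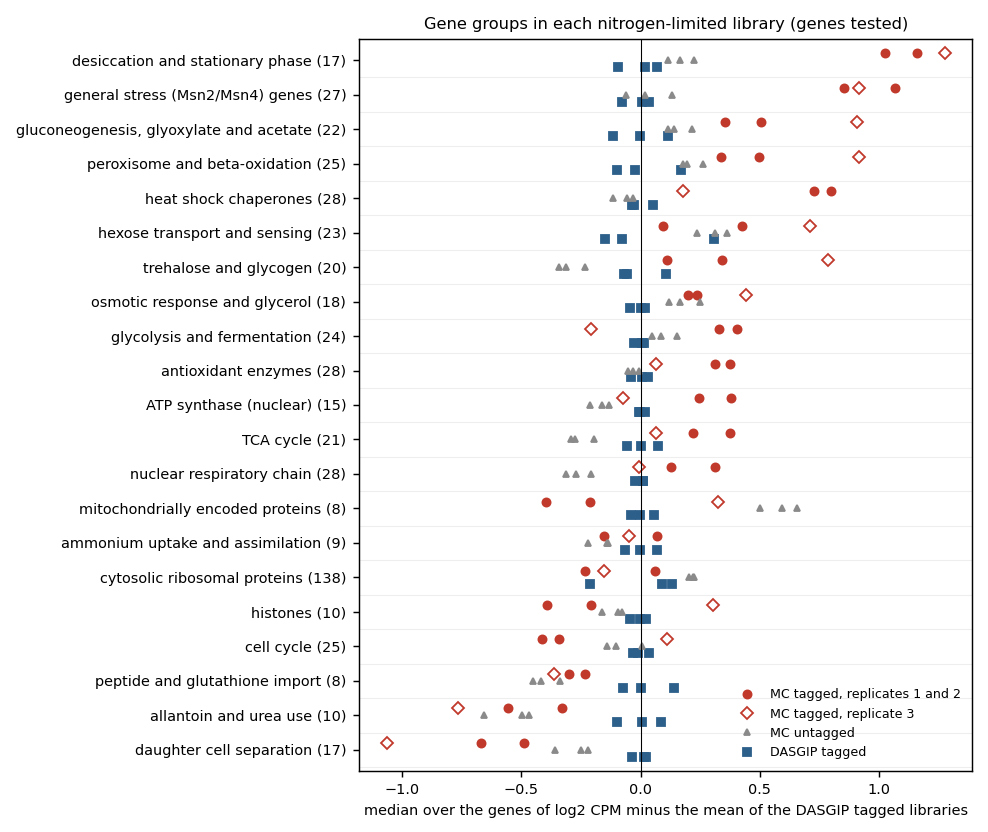
Median over the genes of a group of the difference in log2 CPM from the mean of the DASGIP tagged libraries, in each N-lim library, for 21 gene groups with the number of genes tested; circles are MC tagged replicates 1 and 2, open diamonds MC tagged replicate 3, triangles MC untagged and squares DASGIP tagged libraries. All MC tagged libraries lie above the DASGIP libraries for general stress genes (0.85 to 1.07) and below them for daughter cell separation (-0.49 to -1.06), whereas replicate 3 lies apart from its mates for heat shock, glycolysis, histones and the cell cycle.

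Genes for carbon sources other than glucose rose in cultures fed 6% glucose. Over all genes 10.6% rose and 7.68% fell. Of 22 genes of gluconeogenesis, the glyoxylate cycle and acetate use 15 rose and 2, CIT2 and PYC1, fell (median 0.60; 10 to 15 rose with a library left out, the lowest without MC replicate 3). MDH2 (YOL126C, chromosome XV, 81787 to 82920), the cytosolic malate dehydrogenase, had 99.1, 90.5 and 87.5 CPM in MC libraries, against 31.8, 40.2 and 40.4 CPM in DASGIP libraries (log2 fold change 1.30 ± 0.17, adjusted p = 3.39e-06). The activators SIP4 and ADR1, which switch on genes for non-fermentable carbon, rose by 0.96 ± 0.13 (adjusted p = 4.42e-06) and 0.97 ± 0.13 (adjusted p = 4.93e-06), and the peroxisomal malate dehydrogenase MDH3 by 0.62 ± 0.10 (adjusted p = 5.63e-05). The groups did not overlap in any of these 4 genes. Of 25 peroxisome and beta-oxidation genes 13 rose and none fell (median 0.59; 9 to 15 with a library left out). POT1 (YIL160C, chromosome IX, 40191 to 41444), the thiolase of fatty acid breakdown, had 38.97, 46.3 and 43.5 CPM in MC libraries, against 7.51, 10.4 and 12.6 CPM in DASGIP libraries (2.09 ± 0.30, adjusted p = 8.72e-06). FOX2, the multifunctional enzyme of the same pathway, rose by 1.76 ± 0.32 (adjusted p = 0.000194), the dienoyl-CoA reductase SPS19 by 1.08 ± 0.19 (adjusted p = 0.000192) and the peroxisome division factor PEX11 by 0.69 ± 0.12 (adjusted p = 0.000109). For both lists replicate 3 showed the largest difference from the DASGIP mean, with medians per MC library of 0.51, 0.35 and 0.91 for gluconeogenesis and 0.50, 0.34 and 0.92 for peroxisome genes. The MC untagged libraries had lower medians, 0.14, 0.21 and 0.12 for gluconeogenesis and 0.19, 0.26 and 0.18 for peroxisome genes.

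Sugar uptake and glycolysis split between libraries. Beside the counts below, 10.6% of all genes rose and 7.68% fell. Of 23 hexose transport and sensing genes 6 rose and none fell (median 0.50), but the count was 3 without DASGIP replicate 1, DASGIP replicate 2 or MC replicate 3, and 1 gene fell without DASGIP replicate 2 or MC replicate 3. MTH1, a repressor of hexose transporter genes, had 257, 221 and 319 CPM in MC libraries, against 110, 125 and 240 CPM in DASGIP libraries, which overlap through DASGIP replicate 3 (0.75 ± 0.17, adjusted p = 0.00197; 1.18 without that library). HXT6, whose reads HXT7 can share, had 8.87, 4.21 and 31.5 CPM in MC libraries, against 0.960, 1.31 and 8.83 CPM in DASGIP libraries, which overlap. Its call (adjusted p = 0.00566) was lost without DASGIP replicate 1 (adjusted p = 0.0512), DASGIP replicate 2 (0.0513) or MC replicate 3 (0.186); its log2 fold change of 2.14 was 3.71 without DASGIP replicate 3. Of 24 genes of glycolysis and fermentation 6 rose and 1, PDC1, fell (median 0.26). The number that rose was 13 without MC replicate 3, and 3, 2 and 3 without DASGIP replicates 1, 2 and 3, and the medians per MC library were 0.40, 0.33 and -0.21, replicate 3 being the only one below DASGIP. GLK1, a glucokinase, had 545, 390 and 669 CPM in MC libraries, against 282, 278 and 330 CPM in DASGIP libraries (0.85 ± 0.17, adjusted p = 0.000635), with no overlap. The hexokinase HXK1 had 710, 394 and 2038 CPM in MC libraries, against 259, 265 and 690 CPM in DASGIP libraries. HXK1 was highest in replicate 3 of each vessel. Its call (1.37 ± 0.38, adjusted p = 0.0104) ended without DASGIP replicate 1 or 2 (0.0735 and 0.0732) or MC replicate 3 (0.45, 0.34), and its value was 2.0 without DASGIP replicate 3.

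The largest fall among the genes named here was in a pyruvate decarboxylase, the enzyme at the branch to ethanol. PDC5 (YLR134W, chromosome XII, 410723 to 412414), an isoform of the enzyme, had 364, 344 and 404 CPM in MC libraries, against 1548, 1403 and 2206 CPM in DASGIP libraries. The 3 MC values of PDC5 lay close together, replicate 3 included, and far below all DASGIP values (log2 fold change -2.21 ± 0.14, adjusted p = 5.58e-12; -2.28 without replicate 3). The MC untagged libraries had 1064, 1012 and 843 CPM, between the tagged groups. The main isoform PDC1 had 7754, 7290 and 5609 CPM in MC libraries, against 10040, 9146 and 9557 CPM in DASGIP libraries (-0.48 ± 0.12, adjusted p = 0.00593), also without overlap. The third isoform, PDC6, had 534, 551 and 527 CPM in MC libraries, against 137, 155 and 249 CPM in DASGIP libraries (1.58 ± 0.20, adjusted p = 1.08e-06), and so was the only one of the 3 to rise. The MC untagged libraries had 210, 210 and 193 CPM of PDC6, within the DASGIP range. The 3 genes are similar in sequence, so shared reads make their values uncertain.

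Mitochondrial genes differed less. Their counts stand beside 10.6% of all genes that rose and 7.68% that fell. Of 21 genes of the citric acid cycle 7 rose and 1 fell (median 0.18), and 11 rose and 1 fell without MC replicate 3. The lower call was lost without DASGIP replicate 1, DASGIP replicate 2 or MC replicate 2. Per library, the median difference of this list from the DASGIP mean was 0.38, 0.22 and 0.06 in MC libraries. In MC untagged libraries it was -0.27, -0.20 and -0.29. MDH1 (0.55 ± 0.09, adjusted p = 6.91e-05), SDH2 (0.61 ± 0.10, adjusted p = 0.000103), SDH1 (0.58 ± 0.11, adjusted p = 0.000411) and KGD2 (0.51 ± 0.10, adjusted p = 0.000497), which encode malate dehydrogenase, subunits of succinate dehydrogenase and a subunit of ketoglutarate dehydrogenase, rose without overlap. Of 28 nuclear genes of the respiratory chain 5 rose and none fell (median 0.11), namely NDE2, HAP4, CYC7, QCR6 and COX5A, with 3 without DASGIP replicate 1, DASGIP replicate 2 or MC replicate 1 and 8 without MC replicate 3. Of 15 nuclear ATP synthase genes 5 rose and none fell (median 0.22). The ATP synthase count was 12 without MC replicate 3, 2 without DASGIP replicate 1 or MC replicate 2, and 1 without MC replicate 1. Of 8 mitochondrially encoded protein genes ATP6 rose and VAR1 fell, and neither call held without MC replicate 3. The call of VAR1 was also lost without DASGIP replicate 1, DASGIP replicate 2 or MC replicate 2. ATP6, a subunit of ATP synthase, had 608, 541 and 1214 CPM in MC libraries, against 439, 366 and 431 CPM in DASGIP libraries (0.93 ± 0.22, adjusted p = 0.00384; 0.48, adjusted p = 0.0832, without replicate 3), and replicate 3 was the MC library with the largest mitochondrial share. The 15S rRNA of the mitochondrial ribosome (15S_RRNA) had 454, 438 and 326 CPM in MC libraries, against 984, 919 and 857 CPM in DASGIP libraries (-1.18 ± 0.34, adjusted p = 0.0141), and its call ended without MC replicate 3 (-1.05, adjusted p = 0.0535). The library kit removes ribosomal RNA, and whether that step removes this one was not tested.

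Genes for allantoin use were lower in MC libraries. Of 10 genes for allantoin and urea 7 fell and none rose, beside 7.68% and 10.6% of all genes. The median was -0.59, and 5 to 7 fell with a library left out. DAL5 (YJR152W, chromosome X, 719666 to 721297), which imports allantoate and dipeptides, had 2503, 1960 and 1804 CPM in MC libraries, against 3413, 3951 and 3792 CPM in DASGIP libraries. DAL4 (YIR028W, chromosome IX, 408468 to 410375), the allantoin permease, had 68.7, 62.3 and 57.2 CPM in MC libraries, against 83.99, 114 and 132 CPM in DASGIP libraries. No value of either gene overlapped between the vessels, and their log2 fold changes were -0.83 ± 0.16 (adjusted p = 0.000493) for DAL5 and -0.81 ± 0.12 (adjusted p = 2.28e-05) for DAL4. The allantoicase DAL2 fell by 0.74 ± 0.15 (adjusted p = 0.00063) and the malate synthase DAL7 by 0.60 ± 0.13 (adjusted p = 0.00155). In the MC untagged libraries DAL4 had 32.4, 27.4 and 28.9 CPM, below both tagged groups, whereas DAL5 had 3822, 4055 and 3573 CPM, close to the DASGIP values.

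The promoters of DAL4 and DAL5 are shown because GATA factors bind the core GATAAG there, marked in capitals on either strand (CTTATC). The windows were taken as above, from chrIX:408068-408367 (forward strand) for DAL4 and chrX:719266-719565 (forward strand) for DAL5.
DAL4: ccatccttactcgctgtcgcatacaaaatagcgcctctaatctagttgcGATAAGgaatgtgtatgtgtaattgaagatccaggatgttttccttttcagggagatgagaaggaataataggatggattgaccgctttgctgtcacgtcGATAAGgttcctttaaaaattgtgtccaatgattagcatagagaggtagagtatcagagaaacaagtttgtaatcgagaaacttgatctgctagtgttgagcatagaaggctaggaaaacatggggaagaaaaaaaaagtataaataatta
DAL5: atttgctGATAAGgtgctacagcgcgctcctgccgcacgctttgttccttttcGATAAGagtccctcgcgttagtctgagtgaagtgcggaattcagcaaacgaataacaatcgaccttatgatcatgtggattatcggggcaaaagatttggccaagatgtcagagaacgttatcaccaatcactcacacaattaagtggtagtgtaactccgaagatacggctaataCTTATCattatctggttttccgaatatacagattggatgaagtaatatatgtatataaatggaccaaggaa
The core was found in 9 of the 10 windows of the allantoin list and in 14% of the 5819 windows.

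Other nitrogen genes moved in both directions. Each count below stands beside the 10.6% of all genes that rose and the 7.68% that fell. Of 9 genes of ammonium uptake and assimilation 3 rose, MEP1, GDH2 and GDH3, and GDH1 fell (median -0.06), and 1 to 3 rose with a library left out, the lowest without DASGIP replicate 1, DASGIP replicate 2 or MC replicate 1. GDH1 (YOR375C, chromosome XV, 1041678 to 1043042), the main glutamate dehydrogenase that fixes ammonium, had 1209, 1083 and 834 CPM in MC libraries, against 2039, 1973 and 1687 CPM in DASGIP libraries (log2 fold change -0.87 ± 0.13, adjusted p = 1.88e-05). Its isoform GDH3 had 33.4, 35.98 and 36.8 CPM in MC libraries, against 22.7, 23.6 and 25.2 CPM in DASGIP libraries (0.57 ± 0.14, adjusted p = 0.0053). The 2 isoforms thus moved in opposite directions, with no overlap in either. Of 18 amino acid permeases 3 rose, GNP1, MMP1 and BAP3, and 4 fell, MUP3, SAM3, AGP1 and CAN1 (median 0.12). Without DASGIP replicate 3, 5 rose, and 2 fell without DASGIP replicate 3, MC replicate 2 or MC replicate 3. GNP1, a glutamine permease, had 9.34, 8.11 and 14.1 CPM in MC libraries, against 2.58, 4.18 and 3.80 CPM in DASGIP libraries (1.58 ± 0.21, adjusted p = 2.18e-06). MUP3, a methionine permease, had 117, 83.4 and 110 CPM in MC libraries, against 138, 141 and 226 CPM in DASGIP libraries (-0.70 ± 0.14, adjusted p = 0.000664; -0.43 without DASGIP replicate 3). MMP1, which imports methylmethionine, rose by 0.94 ± 0.21 (adjusted p = 0.00192), a call lost without MC replicate 3 (0.37, adjusted p = 0.0627). Of 8 genes in the list of peptide and glutathione import 5 fell and none rose (median -0.32; 3 without DASGIP replicate 3). That list also holds DAL2, which is an allantoin gene. PTR2, the importer of small peptides, had 287, 242 and 397 CPM in MC libraries, against 557, 540 and 668 CPM in DASGIP libraries (-0.93 ± 0.14, adjusted p = 2.01e-05), and DUG2 of glutathione breakdown had a log2 fold change of -0.28 ± 0.07 (adjusted p = 0.00532). Of 13 genes of aromatic amino acid breakdown and esters 3 rose, ARO9, ARO10 and PDC6, and 4 fell, PDC5, ARO8, BAT1 and BAT2, and 5 rose without MC replicate 2. The aminotransferase ARO8 fell to 217, 202 and 232 CPM in MC libraries, against 343, 353 and 324 CPM in DASGIP libraries (-0.65 ± 0.11, adjusted p = 7.73e-05). Its partner ARO9 had 9.34, 8.90 and 38.4 CPM in MC libraries, against 6.77, 6.97 and 4.91 CPM in DASGIP libraries (1.59 ± 0.32, adjusted p = 0.000748), which was 0.54 (adjusted p = 0.0291) without replicate 3. ARO9 and ARO10 were thus both high in replicate 3.

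Every MC library had lower levels of genes that part daughter from mother cells. Of 17 such genes 14 fell and none rose (median -0.71), beside 7.68% and 10.6% of all genes. With any one library left out 13 to 14 fell, and 14 without MC replicate 3. The medians per library were -0.49, -0.67 and -1.06 in MC, -0.25, -0.36 and -0.22 in MC untagged and 0.02, -0.04 and 0.01 in DASGIP libraries, so the MC untagged libraries also lay below DASGIP, by less. DSE2 (YHR143W, chromosome VIII, 385510 to 386487), a secreted enzyme that degrades the daughter's side of the septum, had 123, 95.8 and 101 CPM in MC libraries, against 377, 271 and 282 CPM in DASGIP libraries (log2 fold change -1.54 ± 0.12, adjusted p = 2.95e-10). CTS1 (YLR286C, chromosome XII, 708448 to 710136), the chitinase of the septum, had 404, 331 and 265 CPM in MC libraries, against 847, 721 and 785 CPM in DASGIP libraries (-1.23 ± 0.12, adjusted p = 2.38e-08). SCW11, a cell wall glucanase, had 93.9, 91.9 and 67.97 CPM in MC libraries, against 212, 181 and 225 CPM in DASGIP libraries (-1.28 ± 0.13, adjusted p = 7.77e-08). These 3 genes are among the 12 largest falls, for which a lack of overlap between the groups was a condition. Replicate 3 was the lowest MC library for CTS1 and SCW11. DSE1 fell by 1.15 ± 0.13 (adjusted p = 5.13e-07).

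Other genes of the 12 largest falls had different roles, although SFG1 was also counted in the daughter cell separation list. IRC7 (YFR055W, chromosome VI, 264204 to 265226), a lyase that splits cysteine and its conjugates, had 28.4, 25.2 and 32.9 CPM in MC libraries, against 90.4, 88.4 and 78.1 CPM in DASGIP libraries (log2 fold change -1.57 ± 0.12, adjusted p = 1.21e-10). YFR056C, a dubious reading frame that overlaps IRC7, had a log2 fold change of -1.37. SFG1, a regulator of filamentous growth, had 45.4, 42.7 and 36.5 CPM in MC libraries, against 103, 131 and 120 CPM in DASGIP libraries (-1.51 ± 0.18, adjusted p = 8.52e-07), and SPS4, a sporulation gene that lies near it on chromosome XV, had 21.02, 11.96 and 13.2 CPM in MC libraries, against 41.6, 46.4 and 35.5 CPM in DASGIP libraries (-1.42 ± 0.21, adjusted p = 1.87e-05). The MC untagged libraries had 101, 106 and 108 CPM of SFG1 and 44.4, 51.7 and 52.1 CPM of SPS4, near or above the DASGIP values. IMD2, an inosine monophosphate dehydrogenase of guanine nucleotide synthesis with close relatives, had 18.7, 16.8 and 28.7 CPM in MC libraries, against 48.6, 67.9 and 55.2 CPM in DASGIP libraries (-1.42 ± 0.19, adjusted p = 4.93e-06). The MC untagged libraries had 88.22, 75.65 and 94.92 CPM of IMD2, above the DASGIP values. NRS1, which promotes entry into the cell cycle on poor nitrogen, had 47.6, 26.3 and 26.7 CPM in MC libraries, against 85.5, 68.3 and 79.2 CPM in DASGIP libraries (-1.21 ± 0.18, adjusted p = 2.32e-05). PHO3, an acid phosphatase repressed by thiamine, had 10.9, 15.5 and 11.7 CPM in MC libraries, against 25.7, 27.1 and 39.5 CPM in DASGIP libraries (-1.27 ± 0.16, adjusted p = 1.4e-06). A lack of overlap between the groups was a condition for choosing these genes, and all were called without MC replicate 3.

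Some genes linked to haem, to which Hap1p responds, were higher in MC libraries. Of 17 genes of haem synthesis and the Hap1 system 5 rose and none fell (median 0.12), beside 10.6% and 7.68% of all genes, namely HEM1, HEM13, HEM15, CYC7 and CTT1, and 3 rose without DASGIP replicate 1. HEM13 (YDR044W, chromosome IV, 546642 to 547628), the coproporphyrinogen oxidase, had 61.1, 56.3 and 62.5 CPM in MC libraries, against 31.5, 34.8 and 36.5 CPM in DASGIP libraries (log2 fold change 0.81 ± 0.11, adjusted p = 4.47e-06). CYC7, the cytochrome c form of low oxygen, had 23.7, 19.4 and 26.8 CPM in MC libraries, against 5.89, 10.6 and 9.81 CPM in DASGIP libraries (1.41 ± 0.33, adjusted p = 0.00308). Of the markers of mating type, 2 of 7 MATa genes fell, BAR1 by 0.67 ± 0.13 (adjusted p = 0.000694) and STE6 by 0.50 ± 0.10 (adjusted p = 0.000944), which encode the pheromone protease and the exporter of a-factor, and 4 fell without DASGIP replicate 1. Of 5 MATalpha genes 3 rose, STE3, AFB1 and MF(ALPHA)2, but 1 gene without MC replicate 3 and 5 without DASGIP replicate 3. STE3, the receptor for a-factor, had 10.9, 9.64 and 13.7 CPM in MC libraries, against 5.98, 5.70 and 7.11 CPM in DASGIP libraries (0.87 ± 0.14, adjusted p = 4.06e-05). Of 20 meiosis genes 5 rose, IME1, REC8, SPO19, SPS22 and DIT1, and SPS4 fell, and 3 rose without DASGIP replicate 2. IME1, the inducer of meiosis, had 6.80, 6.16 and 4.94 CPM in MC libraries, against 3.06, 2.31 and 2.82 CPM in DASGIP libraries (1.13 ± 0.20, adjusted p = 0.000178), and the cohesin subunit REC8 had 6.75, 5.27 and 10.9 CPM in MC libraries, against 3.67, 3.57 and 3.62 CPM in DASGIP libraries (1.08 ± 0.19, adjusted p = 0.00019).

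Among growth genes, those called in the cell cycle list were lower in MC libraries, and the histone, ribosome, translation and proteasome lists held 0 to 4 called members in a direction, beside the 10.6% of all genes that rose and the 7.68% that fell. None of 10 histone genes passed, and 5 of 25 cell cycle genes fell (CLB2, FAR1, PCL2, CDC20 and CDC6; median -0.20). Without MC replicate 3, 5 histone and 15 cell cycle genes fell, and 3 cell cycle genes fell without MC replicate 2. The medians of the cell cycle genes per MC library were -0.34, -0.41 and 0.11, so replicate 3 was the only one above the DASGIP mean. Of 138 cytosolic ribosomal protein genes, whose paralogs can share reads, 4 rose (RPS14B, RPS9A, RPL7B and RPL22B) and none fell (median -0.11). Without DASGIP replicate 3, 2 rose and 3 fell, and without MC replicate 2, 1 rose and 3 fell. Of 37 ribosome biogenesis genes 3 rose (NSR1, SFP1 and DBP2) and none fell, and 1 to 3 rose and 0 fell with a library left out. Of 20 translation factor genes 3 rose (HYP2, CAM1 and EFB1) and 2 fell (EFT1 and TIF4632), and 1 to 2 rose and 2 to 3 fell with a library left out. None of 32 proteasome genes was called, and 2 fell without MC replicate 1.

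The remaining lists are given by counts, beside the 10.6% of all genes that rose and the 7.68% that fell. Thiamine, biotin and NAD genes and ergosterol genes held the most higher members for their size among these lists, and both counts were smaller with a library left out. Of 42 genes of amino acid synthesis 1 rose (SER3) and 7 fell, and 1 to 2 rose and 1 to 6 fell with a library left out. Of 22 genes of sulphate use and methionine none rose and 4 fell (MET8, SUL2, CYS3 and STR3), and 0 to 1 rose and 0 to 6 fell with a library left out. Of 12 GATA factors and other nitrogen regulators none rose and 2 fell (GZF3 and PTR3), and 0 rose and 1 to 3 fell with a library left out. Of 6 genes of proline and GABA use 1 rose (UGA1) and none fell, and 0 to 1 rose and 0 to 1 fell with a library left out. Of 27 ergosterol genes 8 rose and none fell, and 4 to 7 rose and 0 to 1 fell with a library left out. Of 21 genes of fatty acids and phospholipids 2 rose (INO1 and OLE1) and 2 fell (FAA4 and INO2), and 2 to 4 rose and 1 to 4 fell with a library left out. Of 22 hypoxic genes 5 rose (HEM13, OLE1, CYC7, AUS1 and TIP1) and 1 fell (NCE103), and 3 to 6 rose and 0 to 2 fell with a library left out. Of 25 iron genes 2 rose (ENB1 and FIT1) and 2 fell (ISU2 and AFT1), and 0 to 2 rose and 2 to 4 fell with a library left out. Of 20 genes of phosphate, zinc and copper 4 rose (CTR3, ZPS1, ZRT2 and PHO4) and 3 fell (PHO3, PHO8 and VTC4), and 1 to 4 rose and 1 to 4 fell with a library left out. Of 25 genes of thiamine, biotin and NAD 10 rose and 3 fell (THI20, THI7 and THI2), and 5 to 9 rose and 2 to 3 fell with a library left out. Of 25 purine and pyrimidine genes 2 rose (URA10 and URA3) and 3 fell (IMD2, ADE3 and ADE12), and 1 to 2 rose and 2 to 3 fell with a library left out. Of 17 flocculin genes and their regulators 1 rose (MGA1) and 1 fell (SFG1), and 0 to 2 rose and 1 to 5 fell with a library left out. Of 27 cell wall genes 2 rose (SPI1 and CWP1) and 4 fell (HSP150, SCW10, CRH1 and FKS1), and 2 to 4 rose and 1 to 9 fell with a library left out. Without MC replicate 3, 9 cell wall genes fell. Of 18 genes of protein folding in secretion none rose and 2 fell (LHS1 and SCJ1), and 0 rose and 1 to 4 fell with a library left out. Of 24 genes of autophagy and vacuolar proteases 5 rose (ATG34, PRB1, ATG1, AMS1 and PRC1) and 3 fell (CPS1, ATG41 and PEP4), and 3 to 6 rose and 1 to 3 fell with a library left out. Of 23 efflux genes 2 rose (PDR1 and QDR1) and 3 fell (YCF1, QDR3 and SSU1), and 0 to 3 rose and 3 to 4 fell with a library left out.

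Whether the vessel difference under nitrogen limitation differed from that under the other 3 limitations was tested in the same model, as the N-lim difference minus the mean difference of Et-lim, Glu-lim and OxGlu-lim. N-lim also had a higher percentage of carbon source than the other 3, and the part of that difference was not tested. Of 6612 genes 784 differed (11.9%), 457 with a more positive (6.91%) and 327 with a more negative difference under N-lim (4.95%). With upper-quartile factors the split was 394 more positive and 425 more negative, and without MC replicate 3 it was 518 (7.81%) and 522 (7.87%) of 1040 (15.7%). PDC5 was -2.21 under N-lim and -0.17, -0.16 and -0.03 under Et-lim, Glu-lim and OxGlu-lim, an interaction of -2.09 ± 0.16 (SE, adjusted p = 1.1e-09). HSP26 was 3.37 under N-lim and -0.43, -0.37 and 1.69 under the other 3 in that order (3.07 ± 0.44, adjusted p = 3.14e-05). IRC7 was -1.57 under N-lim and 0.07, 0.25 and -0.46 under the others (-1.52 ± 0.14, adjusted p = 2.6e-08). HSU1, an enzyme that uses hydrogen sulphide, was -1.07 under N-lim and 0.43, 0.20 and 0.57 under the others (-1.47 ± 0.17, adjusted p = 1.13e-06). SFG1 was -1.51 under N-lim but -1.91 under OxGlu-lim, and IMD2 was -1.42 and -0.99. SPS4, whose interaction was not called, was -1.42 under N-lim and -2.29 under OxGlu-lim.

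All of the 12 largest rises under N-lim also had values above 0 under OxGlu-lim, from 1.06 for CTT1 to 3.03 for SIP18. The differences under OxGlu-lim alone were not tested. Under OxGlu-lim HXT5 was 2.56 and FMP16 2.20. Under Et-lim and Glu-lim SIP18, HXT5 and FMP16 lay between -0.14 and 0.26, whereas CTT1 was 1.19 and 0.94. Of the 27 general stress genes 17 had a more positive difference under N-lim and none a more negative one, with median log2 fold changes of 0.19 under Et-lim, -0.23 under Glu-lim and 0.50 under OxGlu-lim beside 1.20 under N-lim. For gluconeogenesis 12 were more positive and 2 more negative, with medians of -0.20, -0.35 and 0.15 beside 0.60, and for peroxisome genes 12 and 1, with medians of -0.13, -0.46 and 0.08 beside 0.59. For daughter cell separation the median was below 0 under every limitation, at -0.41, -0.31 and -0.55 beside -0.71 under N-lim (the list was not tested outside N-lim), and 5 of its 17 genes had a more negative difference under N-lim. Of the heat shock genes 9 were more positive and 2 more negative under N-lim. Their medians were 0.195, 0.08 and 0.62 beside 0.53, so the median was larger under OxGlu-lim than under N-lim. Of the 17 desiccation and stationary phase genes 8 were more positive and 1 more negative, with medians of 0.13, 0.16 and 1.01 beside 1.35. Of the allantoin genes 2 were more negative, with medians of -0.32, -0.12 and -0.12 beside -0.59. Over all genes 6.91% were more positive and 4.95% more negative under N-lim.

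**Figure D5:**
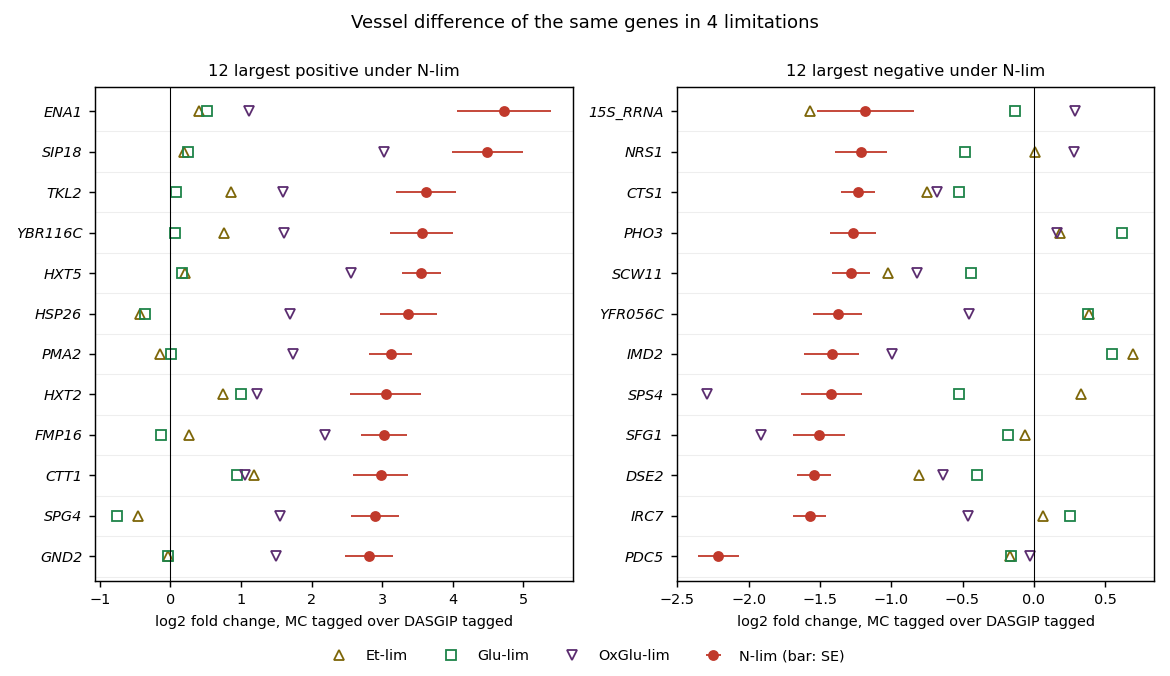
Log2 fold change of MC tagged over DASGIP tagged libraries under N-lim (filled circles with SE, edgeR) and under Et-lim, Glu-lim and OxGlu-lim (open symbols), for the 12 genes with the largest positive and the 12 with the largest negative called difference under N-lim. All 12 genes on the left are above 0 under OxGlu-lim. HSP26 and SPG4 are below 0 under Et-lim and Glu-lim, and PDC5 lies near 0 outside N-lim.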

How the data were processed

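RNA was extracted with RNeasy columns and sequenced from a stranded total RNA kit with ribosomal RNA removal, per the labels' protocols. Bowtie2, SAMtools, bedtools and genome build R64 are named in the submitters' processing notes; the sources used here give neither their versions nor the counting rule and its strand setting. The deposited values used are raw read counts per gene, per the file headers, with 7122 lines analysed and 4 not analysed here; 60 other value columns of these tables were not used. RefSeq locus tags matched 6045 lines and gave coordinates and promoters.

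Counts of 36 libraries were fitted in 12 groups (24 residual degrees of freedom) with edgeR 4.0.16 in R 4.3.3, with TMM factors, filterByExpr (6612 genes), the quasi-likelihood test and Benjamini-Hochberg adjustment at 0.05. Levels are CPM on TMM-scaled library sizes, computed from the deposited counts. The p-values rest on a spread per gene shared by all 12 groups, whose libraries the design text calls biological triplicates. They do not rest on the spread of the compared groups alone. With only the 6 compared libraries in the fit, 287 genes were called. Alternatives used DESeq2 1.42.0, limma 3.58.1 quality weights, other scalings and filters, thinned counts, fewer libraries and a replicate block.

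The comparison, the 46 gene lists (22 described with genes, 24 by counts) and the tests were chosen with earlier results of these data known. Genes are named by rule: the 12 largest and 12 smallest called changes without overlap and with at least 10 CPM, the 6 largest and smallest interactions, up to 4 members per described list by adjusted p with any 4-fold changed member, and the 6 genes highest and lowest in MC replicate 3 against its mates. Members named because a count was 5 or fewer were named after their values were seen. Some results are not reported here.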

Additional observations from a re-analysis of the deposited data

Results flagged for a closer look

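For each gene named here the vessel difference under N-lim differed, by the interaction test at an adjusted p under 0.05 with edgeR's quasi-likelihood model, from the mean vessel difference of the other 3 limitations. Values in parentheses are the N-lim log2 fold change (MC over DASGIP) minus that mean. Among the 12 largest rises the differences were ENA1 (4.05), SIP18 (3.33), HSP26 (3.07), SPG4 (2.79), TKL2 (2.78), YBR116C (2.75), PMA2 (2.59), HXT5 (2.58), GND2 (2.35), FMP16 (2.26), HXT2 (2.06) and CTT1 (1.92). Among genes with large falls they were PDC5 (-2.09), PHO3 (-1.59), IRC7 (-1.52), IMD2 (-1.50), YFR056C (-1.48), HSU1 (-1.47), NRS1 (-1.15), DSE2 (-0.93), SFG1 (-0.78), CTS1 (-0.58) and SCW11 (-0.52). The mean of the other 3 limitations can hide one of them. Their percentage of carbon source was also lower than that of N-lim, and the part of that difference was not tested. The 12 rises were all above 0 under OxGlu-lim as well. Under OxGlu-lim SFG1 was -1.91 and IMD2 -0.99, whereas PHO3, NRS1 and HSU1 were above 0. DSE2, CTS1 and SCW11 were below 0 under all of the other 3 limitations. Their values ran from -0.40 for DSE2 under Glu-lim to -1.02 for SCW11 under Et-lim. Other stress genes had SSA4 (1.31), STI1 (0.69), SSA1 (1.01), SPI1 (1.16), OM14 (1.32), NQM1 (1.94), DDR2 (1.68), FMP45 (1.65), RTN2 (1.60) and HBT1 (1.62), and storage, osmotic and antioxidant genes GLG2 (0.81), PGM2 (1.52), GDB1 (0.95), GCY1 (1.30), GUT2 (1.16), GTT1 (0.75) and GPX1 (1.38). Carbon genes had MDH2 (1.17), SIP4 (1.08), ADR1 (1.02), MDH3 (0.73), POT1 (2.04), PEX11 (0.66), SPS19 (1.09), FOX2 (1.95), MDH1 (0.77), SDH2 (0.52), SDH1 (0.76), KGD2 (0.80), MTH1 (0.60), HXT6 (4.06), GLK1 (0.91), PDC1 (-0.54), HXK1 (1.53), FBA1 (0.51) and MAL12 (1.5). Nitrogen genes had GDH3 (1.13), GDH2 (0.80), MEP1 (0.64), DAL4 (-0.62), GNP1 (0.83), MUP3 (-1.05), MMP1 (0.84), SAM3 (-0.64), PTR2 (-0.69), OPT1 (-0.67), ARO10 (2.51), PDC6 (1.14), ARO8 (-0.47) and ARO9 (1.89). The remaining genes were HEM13 (0.82), HEM1 (0.36), STE3 (0.77), IME1 (1.39), REC8 (1.00) and SPS22 (1.94). Without MC replicate 3 the interaction was called in all but 7 of these 79 genes: it was 0.36 for HXT2, 0.13 for MAL12, 0.26 for MMP1, 0.61 for HXK1, 0.45 for MTH1, 0.56 for GNP1 and -0.39 for SCW11. It stayed called but moved by over 1.5 times in ENA1 (1.98), ARO10 (0.68), ARO9 (0.83) and REC8 (0.65). In 23 of the 79 genes MC replicate 3 was the highest of the 6 N-lim libraries compared, ENA1, HXT2, ARO10, HXT6, PGM2, GLK1 and FOX2 among them, and in 6 it was the lowest. The cause was not tested.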

How the results depend on the processing

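More genes were called higher than lower in MC in each alternative except without MC replicate 3 (636 and 682), and the number of calls depended on the libraries in the fit. With only the 6 libraries, 287 genes were called, 195 higher in MC and 92 lower, 96 of them at least 2-fold; with the replicate block as well, 198, 149, 49 and 102. A test against a log2 fold of 0.5 (glmTreat) called 165, 135 higher and 30 lower. With the 24 tagged libraries 333 genes were lower and 302 had a more positive interaction. limma voom with quality weights gave 1198 interactions, 528 of them more negative. Leaving out 1 of the 6 libraries in turn gave 826 to 1318 calls and 528 to 1040 interactions; the more positive ones numbered 303 to 518 and the more negative ones 225 to 522. Deviations of same-numbered MC and DASGIP libraries correlated at 0.00401, 0.125 and 0.193, and those of differently numbered ones at -0.3 to 0.226. The same-numbered values lay within that range, so the check showed no clear pairing but cannot exclude one. With the replicate block in the model of 36 libraries, 1055 genes were called. DESeq2 called 1391 genes.

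Of 1974 alternative values for 104 named genes, 1798 kept direction and side of the threshold, 165 over 58 genes lost the call, 1 gained it and 10 over 4 genes reversed. HXT1, not called, was -0.67 to 0.44 with a library left out and 0.15 with limma. REG2 was -1.18 (without MC replicate 3) to 1.57 and -0.22 with limma. YGR035C was -1.66 (without MC replicate 3) to 0.74, -1.35 with limma, -0.21 with the replicate block and -0.50 with the block in the 6 libraries. MAL12 was -0.0167 (without MC replicate 3) to 2.02. Of the list counts, 1387 stayed within 1.5 times and 361 moved. The causes were not tested. Depth was lowest, 12534619 reads, in DASGIP replicate 3.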
